A study of Mus musculus with 21 samples.

Results

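Chaperones and factors of the unfolded protein response formed a set of 40 mouse genes, of which 27 act in the cytosol and nucleus, 3 in mitochondria and 10 in or from the endoplasmic reticulum (ER). Accessible chromatin regions were assigned to these genes when the nearest start site of any protein-coding transcript belonged to one of them, and 31 of the 40 genes held at least 1 region. Their regions numbered 68 of the 41411 regions in the authors' deposited tables, in which 12351 of 21751 protein-coding genes held a region. By compartment, regions were found for 21 of 27 cytosolic, 2 of 3 mitochondrial and 8 of 10 ER genes.

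Chromatin accessibility was mapped by ATAC-seq, in which a transposase cuts open DNA, in nuclei of quadriceps muscle fibres purified with an antibody to PCM1, a centriolar protein that coats the nuclei of muscle fibres. The 21 samples came from wildtype C57/Bl6 male mice, 22 to 26 weeks old at sacrifice, and formed 7 groups of 3. The sedentary group was not exercised, the untrained groups did a single treadmill run to exhaustion, and the trained groups did the same run after 12 weeks with running wheels. Muscle was taken 0, 6 or 72 h after the run, and each exercised group was set against sedentary. With no trained group at rest, effects of the wheel weeks and of the treadmill bout cannot be told apart in the trained groups. The tables give 1 concentration per group and region, namely log2 of normalised reads averaged over its samples, and list only regions that passed the authors' false discovery rate of 0.05. They hold no value per sample, so the spread between mice and the read depth behind each value are unknown here, and none of the differences below could be tested. A region that a table does not list has no value in that contrast and is not shown to be unchanged. The table for untrained 72 h lists 0 regions.

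Heat shock proteins bind unfolded or damaged proteins and help them refold. In resting cells the heat shock factor Hsf1 is held inactive by chaperones, and when damaged proteins draw these away it binds heat shock elements, repeats of GAA and its complement TTC, and switches on chaperone genes. The ER has a response of its own, in which the sensors Ire1, Perk and Atf6 act through the factors Xbp1, Atf4 and cleaved Atf6 on ER chaperone genes. Contracting muscle is warm and mechanically loaded, and heat shock proteins such as Hsp70, Hspb1 and Cryab are well known there.

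The letters that Hsf1 and the ER factors recognise were looked up first. RefSeq promoters, from 250 bases before to 50 bases after each start on build GRCm38.p6, matched 32 of the 40 genes and were placed by exact match on GRCm39, the build of the deposited regions. The other 8 had no promoter sequence and were not searched in this step, namely Hsf1, Hspa8, Hsp90aa1, Hsp90ab1, Hspb2, Cryab, Hspa9 and Atf6. The heat shock element was searched on both strands as 3 units, GAA then TTC then GAA or the reverse, each 2 bases apart. It was found in 5 of the 32 genes (15.6%), against 0.588% of all 15319 genes with a promoter sequence and 0 of 59 other genes of the pathway. The 5 were Hsph1, Dnajb6, Chordc1 and the head-to-head pair Hspd1 and Hspe1, which share 1 stretch. They are shown because they carry the full element, with the units and the bases between them in capitals and positions counted from 0 at the first transcribed base in RefSeq. The Dnajb6 and Chordc1 stretches are centred 0.22 and 0.18 kb after the start of the Ensembl canonical transcript, on which member regions are placed below.
Hspe1, chr1:55127213-55127240, + strand, -89 to -72: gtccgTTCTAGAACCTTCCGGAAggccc
Hsph1, chr5:149559751-149559780, - strand, 15 to 27: gtaaaatgctgcagaTTCTGGAAAGTTCtc
Dnajb6, chr5:29940842-29940870, + strand, -46 to -34: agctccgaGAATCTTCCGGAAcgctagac
Chordc1, chr9:18203556-18203584, + strand, -4 to 18: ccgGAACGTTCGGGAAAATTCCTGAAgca

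Of these 5 genes, Chordc1 alone had a listed region at its start, which lost accessibility at trained 0 h, while no table listed a region at the starts of Hsph1, Dnajb6, Hspd1 or Hspe1. Shorter elements of 2 units, GAANNTTC or TTCNNGAA, which overlap the longer ones, occurred in 15 of 32 members (46.9%) and 15.3% of all genes. The classical inducible Hsp70 genes Hspa1a and Hspa1b were among these 15, and their promoters are shown because a single region, the widest of the set, covered both.
Hspa1a, chr17:35191214-35191251, - strand, -104 to -97: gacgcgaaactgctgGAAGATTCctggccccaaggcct
Hspa1b, chr17:35178296-35178333, - strand, -104 to -97: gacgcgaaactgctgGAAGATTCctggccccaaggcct
These 2 stretches are the same, and the 300-base promoters were identical at 296 bases (98.7%). The ER stress element, CCAAT and CCACG 9 bases apart, occurred in 2 of 32 members (6.25%), against 0.183% of all genes, and in 7 of 59 other pathway genes. The 2 members were the ER chaperones Hspa5 (BiP), which held no listed region, and Hsp90b1 (Grp94), whose listed regions all lay past its 3′ end and of whose 2 matches the nearer to the start is shown.
Hspa5, chr2:34662032-34662060, + strand, -65 to -47: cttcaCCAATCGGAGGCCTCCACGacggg
Hsp90b1, chr10:86541392-86541420, - strand, -107 to -89: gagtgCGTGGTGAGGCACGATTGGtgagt
The unfolded protein response element TGACGTGG was found in 0 of 32 members and 0.907% of all genes. The C/EBP-ATF element TGATGCAA, read by Atf4 and Ddit3, was found in Herpud1 alone among the 32, and in 0.973% of all genes.

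Directly after the run, most listed regions of the member genes stood higher in untrained than in sedentary mice, chiefly those of cytosolic members. The members were chosen with earlier results of these data known, so the shares below are descriptions only. In untrained 0 h, 23 of the 33 listed member regions (69.7%) had a higher concentration than sedentary, against 15.5% of all 21144 regions in that table, and the median difference was +0.84 on the log2 scale against -0.84 for all. In trained 0 h the members stood nearer to all listed regions, with 9 of 42 regions higher (21.4%, against 13.1% of all 34078) and a median of -0.73 against -0.86. At 6 h after the run 16 of 17 member regions (94.1%) were higher in untrained mice, where 49.5% of all 8360 regions were, and the medians were +1.09 and -0.55. Trained 6 h listed 2 higher and 7 lower (22.2%, against 10.7%), and trained 72 h listed 0 higher and 3 lower (against 1.03%).

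**Figure D1:**
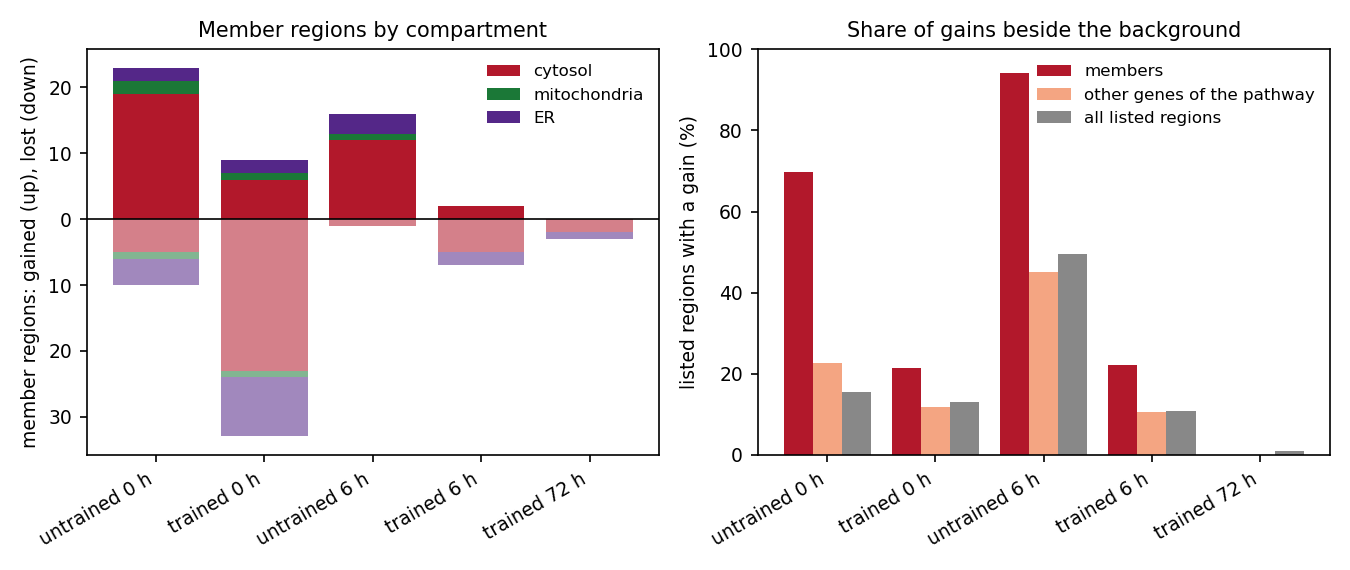
Left, listed member regions with a higher (up) or lower (down, paler) concentration than sedentary, stacked by compartment, for the 5 contrasts; right, the percent of listed regions that were higher, for members, for the 70 other pathway genes and for all listed regions. Members stand at 69.7% against 15.5% in untrained 0 h and at 21.4% against 13.1% in trained 0 h.

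The compartments differed in their counts. In untrained 0 h, cytosolic genes had 19 regions higher and 5 lower, mitochondrial genes 2 and 1, and ER genes 2 and 4. In trained 0 h the same classes counted 6 and 23, 1 and 1, and 2 and 9. In untrained 6 h they counted 12 and 1, 1 and 0, and 3 and 0. Of all listed regions, 15.5%, 13.1% and 49.5% were higher in these 3 contrasts. The cytosolic median was thus +1.11 in untrained 0 h and -0.72 in trained 0 h, while the ER median was below 0 in both, at -0.67 and -0.75, as was that of all listed regions. The 30 other cytosolic chaperones of the pathway counted 8 higher and 23 lower in untrained 0 h.

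Counted by gene, 19 of 40 members held a gained region in untrained 0 h, against 8.9% of all protein-coding genes, 7 of 40 in trained 0 h, against 11.8%, and 12 of 40 in untrained 6 h, against 12.1%. A gained region within 1 kb of a start site was held by 7 of 40 in untrained 0 h, against 1.41%, and by 0 in trained 0 h, against 1.3%. The 7 genes rest on 5 regions, since 1 covers Hspa1a and Hspa1b and 1 covers Hspb2 and Cryab. A shared region counts for each of its genes in the other gene counts too. A lost one was held by 0 of 40 in untrained 0 h, against 9.63%, and by 9 of 40 (22.5%) in trained 0 h, against 31.6%, below the background. A region higher by at least 1 on the log2 scale was held by 16 of 40 in untrained 0 h, against 5.12%. The 5 contrasts share the sedentary samples, so a gene's values in several of them are given side by side and not as separate evidence.

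These counts rest on the naming of regions. The gene positions in the deposited tables lie within 1 kb of their GRCm39 positions for 365 of 10185 genes, with a median shift of 109 kb, and the deposited gene name was the nearest gene found here for 26.4% of regions. With the deposited names, untrained 0 h would hold 8 member regions, 2 of them higher, and untrained 6 h 5 regions, 2 of them higher. The names used here come from start sites on the build of the regions.

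**Figure D2:**
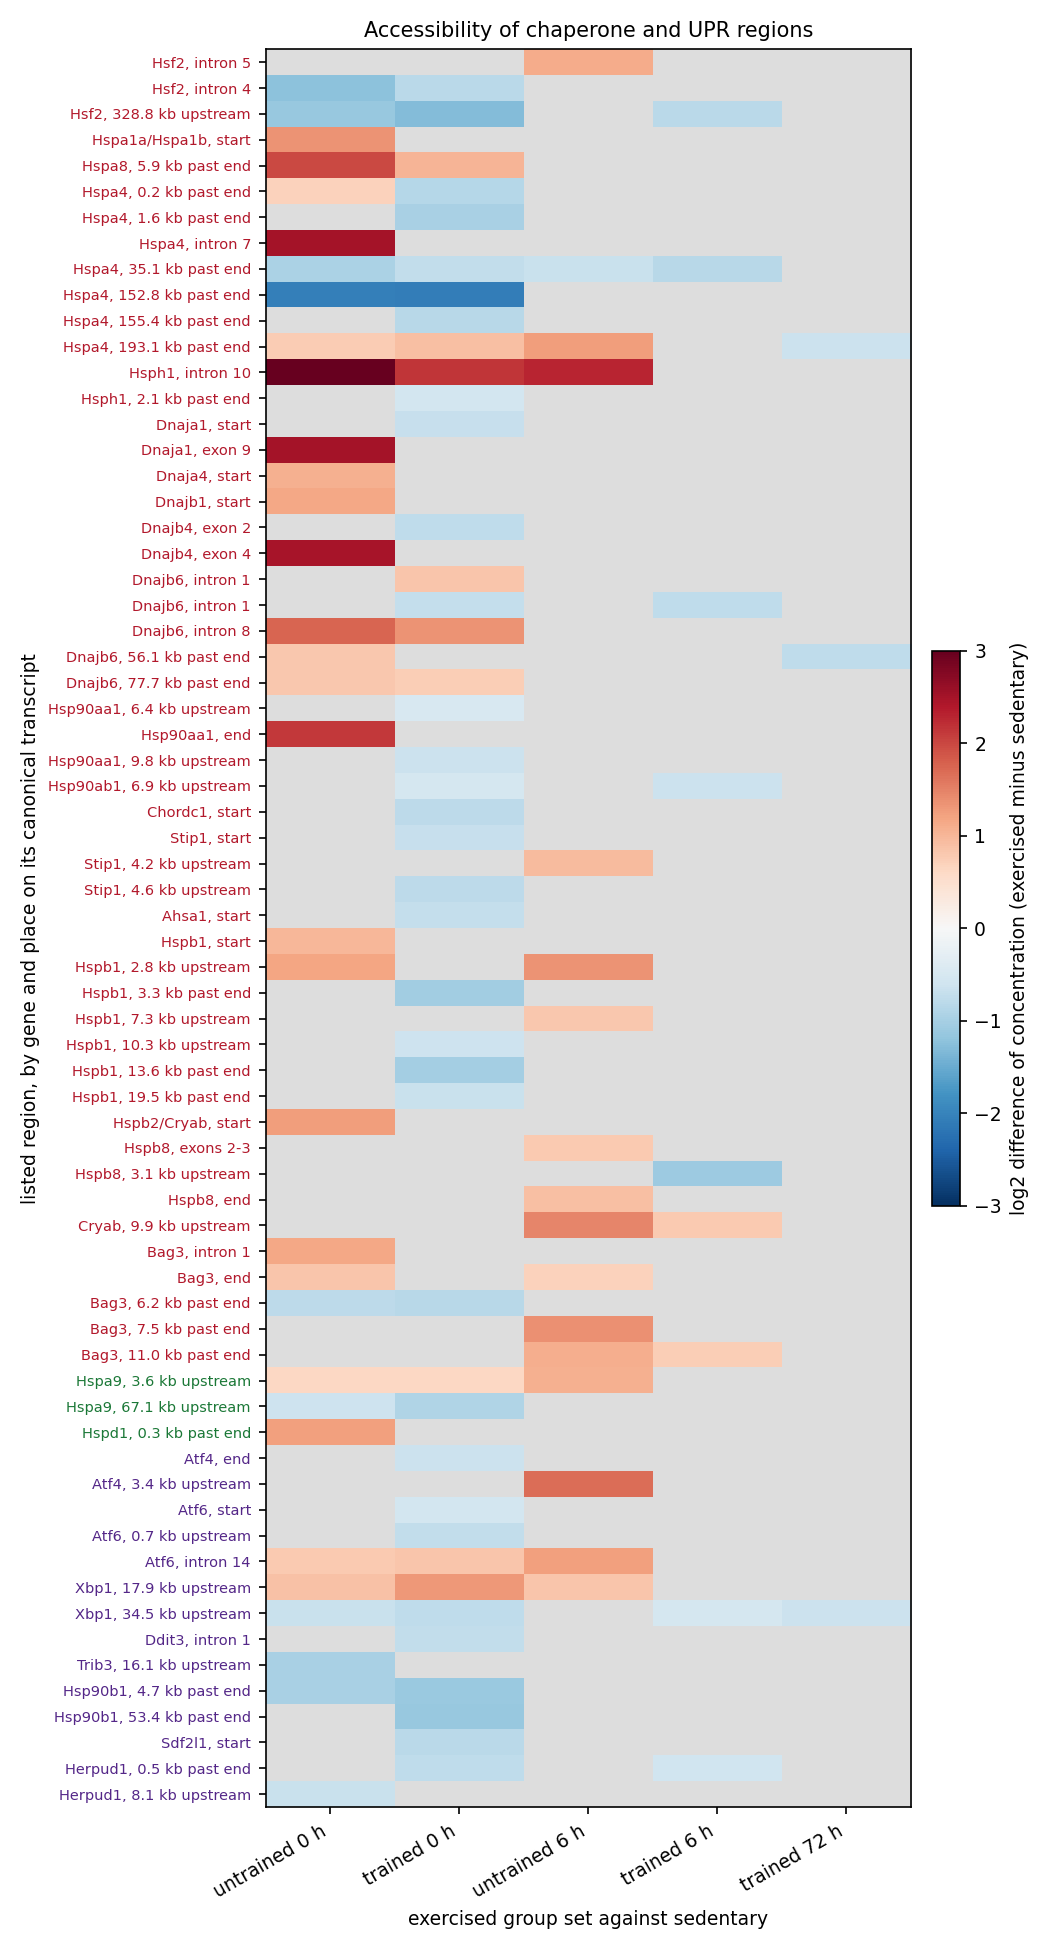
Each row is 1 of the 68 member regions, named by gene and by its place on the Ensembl canonical transcript (label red for cytosolic, green for mitochondrial, purple for ER genes); colour is the log2 difference in concentration, exercised minus sedentary, and grey means not listed. Among cytosolic rows, 19 are red and 5 blue in untrained 0 h, and 6 are red and 23 blue in trained 0 h. The other cytosolic rows are grey in these columns. The value of +3.25 at Hsph1 lies just beyond the end of the colour scale at 3.

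The 6 Hsp70 and Hsp110 members, the ATP-driven core of refolding, had 6 regions higher and 2 lower in untrained 0 h and 3 and 6 in trained 0 h. Of all listed regions, 15.5% and 13.1% were higher in these contrasts. The largest difference of the whole set lay in intron 10 of Hsph1 (Hsp110), a nucleotide exchange factor that releases clients from Hsp70. This 388-bp region at chr5:149549087-149549474 held 25.3 normalised reads in sedentary, 240.2 in untrained 0 h, 112.5 in trained 0 h and 124 in untrained 6 h. The 3 exercised values were all well above sedentary, by +3.25, +2.15 and +2.29 in that order. The sedentary value was the lowest of all 68 regions, so the fold rests on few reads. The 100 bases around its only 2-unit element (capitals) are shown because no other member region moved as far.
Hsph1 intron 10, chr5:149549269-149549368, - strand: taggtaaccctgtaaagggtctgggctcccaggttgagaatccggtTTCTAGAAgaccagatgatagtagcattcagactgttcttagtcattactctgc
A second region, 2.1 kb past the end of Hsph1, was listed in trained 0 h alone, at -0.56.

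The region over Hspa1a and Hspa1b, the stress-inducible Hsp70 genes, was 23.6 kb wide (chr17:35169573-35193213) and covered both whole genes and the start of their neighbour Hspa1l. Its concentration rose from 13.99 in sedentary to 15.33 in untrained 0 h, or from 16289 to 41127 normalised reads, a difference of +1.34. No other contrast listed it. The genes are near-identical copies, and the aligner reported up to 10 placements per read, so the shares of Hspa1a and Hspa1b cannot be told apart.

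Constitutive members also had higher regions. Hspa8 (Hsc70), the housekeeping Hsp70, had a 706-bp region 5.9 kb past the end of its canonical transcript, inside a longer annotated one, with 96.1 normalised reads in sedentary, 379 in untrained 0 h (+1.98) and 194 in trained 0 h (+1.01). Both exercised groups stood above sedentary there, untrained the higher. Hspa4, a cytosolic Hsp110 relative, had a region in intron 7 (chr11:53169031-53169943) that went from 200.3 reads to 1131 in untrained 0 h, a difference of +2.50, and was not listed elsewhere. Its other 6 regions lay past its 3′ end. One of them, starting 188 bp past the end, was at +0.69 in untrained 0 h and at -0.86 in trained 0 h, on opposite sides of sedentary. A region 1.6 kb past the end was at -0.97 in trained 0 h. Far away, a region 153 kb past the end was lower in both groups at 0 h, at -2.05 and -2.08. Its neighbour at 155.4 kb was at -0.83 in trained 0 h (1634 to 919 reads), and one 35.1 kb past it was lower in 4 contrasts, between -0.94 and -0.66. A region 193 kb past the end was higher in untrained 0 h (+0.77), trained 0 h (+0.90) and untrained 6 h (+1.25) but lower in trained 72 h (-0.65). Nearest start sites assign such distant regions to Hspa4, and no contact with its promoter was measured.

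J-domain proteins, the co-chaperones that deliver clients to Hsp70 and trigger its ATPase, had 6 members, of which 5 held regions in untrained 0 h. Their regions counted 7 higher and 0 lower there and split 3 and 3 in trained 0 h, where 15.5% and 13.1% of all regions were higher. J-domain genes of the wider pathway were mixed in untrained 0 h. Regions of Dnajc10, Dnajc7 and Dnajc5 went down to -1.69, -1.10 and -1.01. Dnajb2 had regions at +1.52 and +1.04. Dnaja2 had regions at +1.32, -0.99 and -0.81, and Dnajb12 at +0.98, +0.63 and -0.82. Dnajb1 (Hsp40), the main partner of the inducible Hsp70, lay wholly under a region of 9.1 kb (chr8:84333193-84342328) that rose from 8087 to 18032 normalised reads, a difference of +1.16. That region also covers the start of Tecr, so its reads cannot be assigned to 1 of the 2 genes. Dnaja4, a J-domain protein of striated muscle, had a 5.9 kb region over its start at chr9:54606060-54611943, which went from 2141 to 4480 reads (+1.07).

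Dnaja1, a general Hsp70 partner, showed 2 neighbouring regions with opposite signs. The 4.2 kb region over its last exon (chr4:40732333-40736517) was at 347 reads in sedentary and 1960 in untrained 0 h (+2.50). The 11.1 kb region over its start and exons 1 to 8 (chr4:40720976-40732099) was at 6538 reads in sedentary and 4027 in trained 0 h (-0.70). Each region was listed in 1 contrast only. Dnajb4 had the same layout, with a 1.1 kb region inside the last exon at +2.48 in untrained 0 h (82.9 to 462 reads) and a region at an internal start site in exon 2 at -0.76 in trained 0 h. Dnajb6, which restrains aggregation and is mutated in a limb girdle muscular dystrophy, had a region in intron 8 that was higher in both groups at 0 h, at +1.75 in untrained and +1.35 in trained (487 to 1636 and 1241 reads). In its intron 1, one region was at +0.82 and another at -0.72 in trained 0 h, and the latter was at -0.76 in trained 6 h. A region 77.7 kb past its end was higher in both groups at 0 h (+0.82 and +0.75), and one 56.1 kb past its end was at +0.81 in untrained 0 h and -0.76 in trained 72 h.

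**Figure D3:**
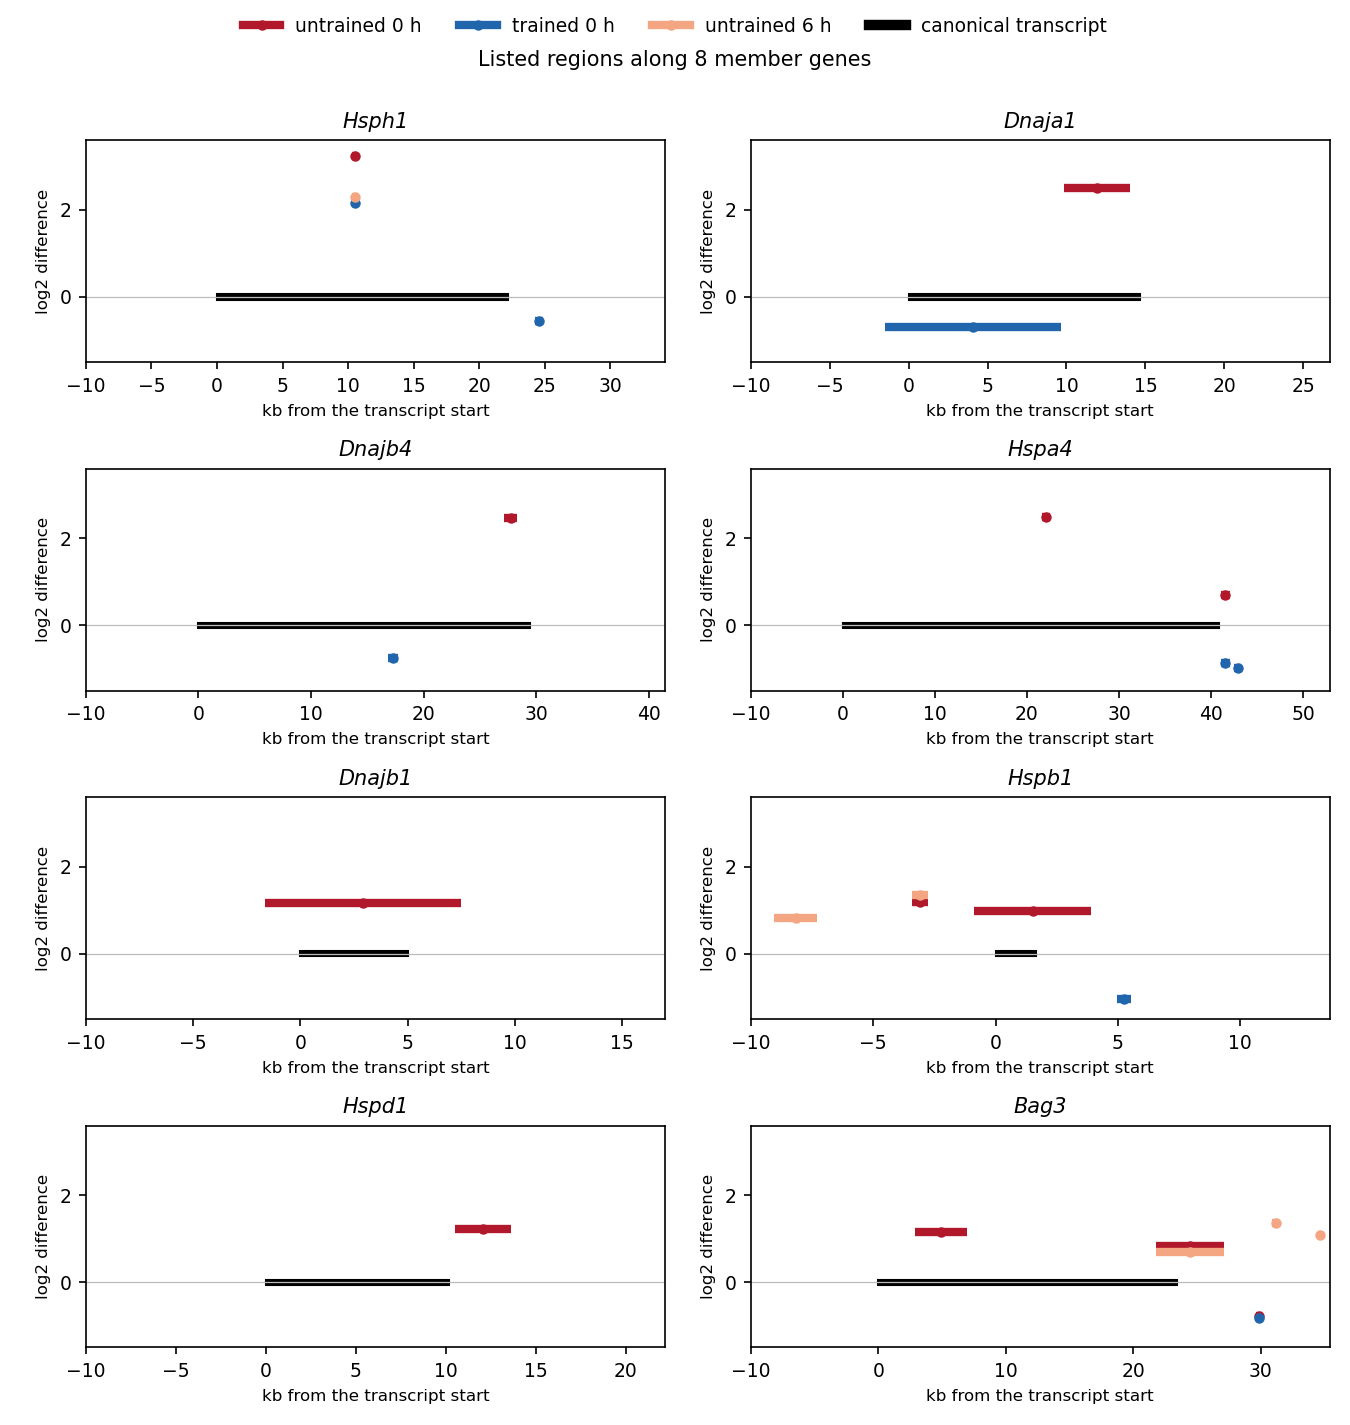
Listed regions along 8 member genes; the x axis is the distance in kb from the start of the canonical transcript (black bar), the y axis the log2 difference from sedentary in untrained 0 h, trained 0 h or untrained 6 h, with bars to scale in width and a dot at each centre, up to 10 kb upstream and 12 kb past the transcript. Gains of untrained 0 h lie over the 3′ part of Dnaja1 (+2.50) and Dnajb4 (+2.48) and over the whole of Dnajb1 and Hspb1, while trained 0 h values at Dnaja1 and Dnajb4 lie below 0.

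Hsp90 and its co-chaperones, which mature kinases and steroid receptors, had 1 region higher and 0 lower in untrained 0 h. In trained 0 h they had 0 higher and 7 lower, where 29616 of all 34078 regions were lower, so the count is near that of all regions. The 1 higher region, 4.1 kb over the end of the inducible Hsp90aa1 (chr12:110653475-110657622), rose from 685 to 2962 normalised reads (+2.11). Upstream of Hsp90aa1, trained 0 h listed -0.47 at 6.4 kb, at an alternative start site, and -0.66 at 9.8 kb. The constitutive Hsp90ab1 had a region at an alternative start 6.9 kb upstream of its canonical one, at -0.53 in trained 0 h and -0.64 in trained 6 h. Another 3 co-chaperones lost accessibility over their canonical start in trained 0 h and were listed nowhere else at it. Chordc1, a co-chaperone with zinc-binding CHORD domains, fell from 4420 to 2583 reads (-0.77). Stip1 (Hop), which bridges Hsp70 and Hsp90, fell from 9655 to 5978 (-0.69). Ahsa1, an activator of the Hsp90 ATPase, fell from 4556 to 2760 (-0.72), in a region that also covers the start of Vipas39. Upstream of Stip1, a region at 4.2 kb was at +0.94 in untrained 6 h and its neighbour at 4.6 kb was at -0.79 in trained 0 h. The lost regions of Chordc1 and Stip1 were the 2 among the 33 lost member regions of trained 0 h with a 3-unit heat shock element in their central 300 bases. In all 29616 lost regions of that table the share was 0.463%.
Stip1, chr19:7017632-7017674, - strand: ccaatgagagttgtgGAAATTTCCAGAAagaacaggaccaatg

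The small heat shock proteins are ATP-independent holdases that are abundant in muscle. Those among the members and their partner Bag3 had 5 regions higher and 1 lower in untrained 0 h. They counted 0 and 5 in trained 0 h, and 8 and 0 in untrained 6 h, where all regions stood at 15.5%, 13.1% and 49.5% higher. Hspb3, a small heat shock gene outside the members, had only lower regions in both groups at 0 h. It was at -1.72 over its start in untrained 0 h, and a region 5.7 kb from the start was at -0.87 in untrained 6 h. Hspb1 (Hsp25) lay wholly under a 4.8 kb region (chr5:135915897-135920649) that rose from 4845 to 9614 reads in untrained 0 h (+0.99). A region 2.8 kb upstream was higher in untrained mice at both times, at +1.19 after 0 h and +1.35 after 6 h (198.0 to 453 and 506 reads), and one 7.3 kb upstream was at +0.81 after 6 h. Around the same gene, 4 further regions were lower in trained 0 h, at -1.04, -1.01, -0.67 and -0.62, from 10.3 kb upstream to 19.5 kb past its end. Hspb1 thus had 2 regions higher in untrained 0 h and 4 lower in trained 0 h, with no region listed in both.

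Hspb2 and Cryab (αB-crystallin) are neighbours that face away from each other, and a single 8.1 kb region (chr9:50662400-50670490) covered both starts. It went from 6080 to 14557 reads in untrained 0 h (+1.26), and counts for both genes. A region 9.9 kb upstream of the Cryab start, beyond Hspb2, was at +1.47 in untrained 6 h and +0.78 in trained 6 h (147.0 to 408 and 252 reads), one of the 2 member regions that were higher in trained 6 h. Hspb8, the partner of Bag3 in chaperone-assisted autophagy, appeared only at 6 h. Its 9.9 kb region over exons 2 and 3 was at +0.78 and its 3.6 kb region over the gene end at +0.91 in untrained mice, and a region 3.1 kb upstream was at -1.09 in trained mice (2410 to 1132 reads).

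Bag3, which carries clients of Hspb8 and Hsp70 to autophagy and is needed for the Z-disc, had 5 regions. A 4.1 kb region in intron 1 went from 1605 to 3568 reads in untrained 0 h (2.22-fold), and a 5.3 kb region over the gene end was higher in untrained mice at 0 h (+0.84) and 6 h (+0.70). Past the gene end, a region at 6.2 kb was lower in both groups at 0 h, at -0.78 and -0.83. Those starting 7473 and 11045 bp past it were higher in untrained 6 h, at +1.36 and +1.09, and the latter was the other member region higher in trained 6 h, at +0.74. All 8 listed values of the members of this class in untrained 6 h were above 0, between +0.70 and +1.47.

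Among the heat shock factors, Hsf1 held no region of its own. A pair of regions inside its gene, at -1.07 and -1.05 in trained 0 h, lay nearer to the start of Bop1, its neighbour, and were not counted. Hsf2, which forms mixed trimers with Hsf1, had an intronic region of 375 bp by an internal start site at +1.11 in untrained 6 h (191.5 to 413.5 reads), and another intronic region at -1.23 in untrained 0 h and -0.81 in trained 0 h. A region 328.8 kb upstream was lower at -1.13, -1.31 and, in trained 6 h, -0.81.

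In mitochondria, the matrix Hsp70 Hspa9 had a region 3.6 kb upstream that was higher in 3 contrasts, at +0.62 in untrained 0 h, +0.61 in trained 0 h and +1.06 in untrained 6 h. Its region 67.1 kb upstream was lower at 0 h, at -0.61 and -0.90. Hspd1 (Hsp60), the matrix chaperonin, had a 3.1 kb region that began 336 bp past its 3′ end (chr1:55113535-55116658) and rose from 626 to 1461 reads in untrained 0 h (+1.22). Its partner Hspe1 (Hsp10) held no listed region, although both share the promoter stretch printed above.

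The 5 unfolded protein response factors had 2 regions higher and 2 lower in untrained 0 h, 2 and 5 in trained 0 h, and 3 and 0 in untrained 6 h. Of all listed regions, 15.5%, 13.1% and 49.5% were higher in these contrasts, and the counts here are small. Atf4, the translationally induced factor of the Perk branch, had a 4.2 kb region over its end at -0.65 in trained 0 h and a 321-bp region 3.4 kb upstream at +1.67 in untrained 6 h (110.4 to 351 reads). Atf6, an ER membrane protein that is cut to a transcription factor, had lost regions at its start (-0.55) and 0.7 kb upstream (-0.73) in trained 0 h. In its intron 14 a 407-bp region was higher in untrained 0 h (+0.78), trained 0 h (+0.82) and untrained 6 h (+1.23), from 172.5 reads in sedentary to 296, 306 and 405. Xbp1, the factor spliced by Ire1, had a region 17.9 kb upstream that was higher in the same 3 contrasts, at +0.87, +1.31 and +0.84 (85.7 to 157, 212 and 154 reads). Its region 34.5 kb upstream was lower in untrained 0 h (-0.67), trained 0 h (-0.76), trained 6 h (-0.53) and trained 72 h (-0.65), and was 1 of the 3 member regions listed at 72 h. The apoptosis-linked factor Ddit3 (Chop) and the pseudokinase Trib3 each had 1 region, both lower, at -0.75 in trained 0 h and -0.98 in untrained 0 h.

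ER chaperones and degradation factors had 0 regions higher and 2 lower in untrained 0 h and 0 and 4 in trained 0 h, where 15.5% and 13.1% of all regions were higher, so most regions of any kind were lower. Hsp90b1, the ER Hsp90, had a region 4.7 kb past its end at -0.98 and -1.11 in untrained and trained 0 h (3336 to 1688 and 1548 reads), and one 53.4 kb past it at -1.13 in trained 0 h. The start of Sdf2l1, a partner of ER J-domain proteins, was lower in trained 0 h, from 2894 to 1645 reads (-0.81). Herpud1, of ER-associated degradation, was lower past its end in trained 0 h (-0.77) and trained 6 h (-0.60), and 8.1 kb upstream in untrained 0 h (-0.67). The lead chaperone Hspa5 and its co-chaperone Dnajb9 held no listed region.

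In all, 9 members held no listed region, namely Hsf1, Hspa4l, Dnajb5, Fkbp4, Hspb6, Hspb7, Hspe1, Hspa5 and Dnajb9. Hspb6 and Hspb7 are small heat shock proteins of muscle, Hspa4l is an Hsp110 relative, Dnajb5 is a J-domain protein and Fkbp4 is an Hsp90 co-chaperone.

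The gained regions of untrained 0 h were wide. Width was no part of the rule that assigned regions to genes, but the members were chosen with earlier results of these data known. Their median width was 1105 bp, against 578 bp for all gained regions of that table, and 10 of 23 (43.5%) were wider than 2 kb, against 5.07%. On the canonical transcript, 5 of the 23 covered the start, 3 of these the end as well, 2 covered the end alone, 7 lay inside, 6 past the end and 3 upstream. In trained 0 h, 10 of 33 lost member regions (30.3%) lay within 1 kb of a start site, against 26.3% of all lost regions. Wider regions collect more reads, so levels are not compared between member genes here.

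**Figure D4:**
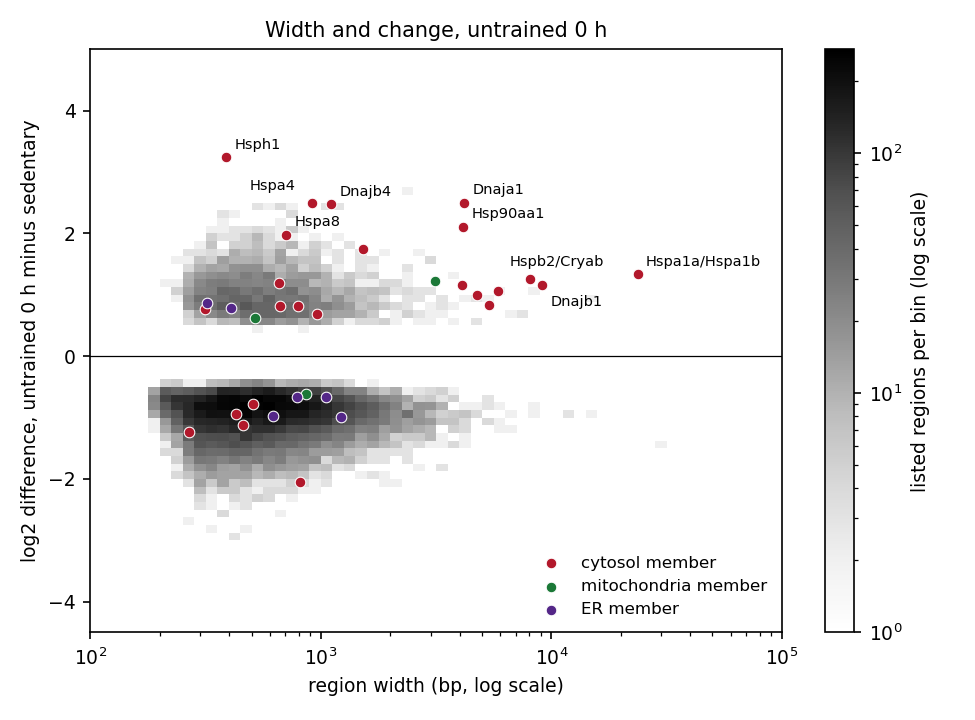
Width in bp (log axis) against log2 difference in untrained 0 h for all 21144 listed regions (grey, number per bin on a log scale) and for the 33 member regions (dots, by compartment). The regions of Hspa1a/Hspa1b, Dnajb1 and Hspb2/Cryab stand at the wide end above 0, and the Hsph1 region of 388 bp stands highest among the members.

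Within these gained regions, 4 of the 22 searched from end to end held a 3-unit heat shock element, at Hspb1, Hspb2/Cryab, Hsp90aa1 and Hspd1. They are shown because these regions gained in untrained 0 h. Wide sequences hold more matches by their length, and in the central 300 bases the count was 0 of 23, against 0.488% of all gained and 0.453% of all lost regions of that table. In trained 0 h, 5 of the 32 lost member regions searched in the same way held the element.
Hspb1, 1.01 kb after its start, chr5:135917755-135917783, + strand: tcagaaggGAAGTTTCTGGAAagttttaa
Hspb2/Cryab, 0.3 kb after the Cryab start, chr9:50664472-50664500, + strand: cctcaccaTTCCAGAAGCTTCagaagact
Hsp90aa1, 2.44 kb past its end, chr12:110654391-110654419, - strand: cctaggaaGAACATTCCAGAAagctgcac
Hspd1, 0.55 kb past its end, chr1:55116433-55116461, - strand: aaaggatgGAAATTTCCAGAAtagaacaa

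The other genes of the pathway stood nearer to all listed regions than the members did. Members and other genes were listed with earlier results of these data known, so this contrast is no separate evidence. Of 70 further chaperones, mitochondrial proteases and ER stress genes, 42 held a listed region, and in untrained 0 h 14 regions were higher and 48 lower (22.6% higher). Trained 0 h counted 12 and 91, untrained 6 h 9 and 11, trained 6 h 4 and 34 and trained 72 h 0 and 9. The share higher was 11.7%, 45.0%, 10.5% and 0.0% in these 4 contrasts. Over all regions it was 15.5% in untrained 0 h, then 13.1%, 49.5%, 10.7% and 1.03%. A gained region was held by 10 of the 70 (14.3%) in untrained 0 h, against 8.9% of all protein-coding genes. The counts were 9 (12.9%, against 11.8%) in trained 0 h and 8 (11.4%, against 12.1%) in untrained 6 h, both near all genes. The myofibre small heat shock gene Hspb3 had the largest difference in untrained 0 h, at -2.38 by a region 5.7 kb from its start. That region was at -2.09 in trained 0 h. A region over the Hspb3 start was at -1.72 in untrained 0 h and -1.55 in trained 0 h. The remaining regions of the gene were lower in these contrasts too, between -1.42 and -1.02. A region 4.89 kb from the start of the myosin chaperone Unc45b was at +1.61 in untrained 0 h and -0.59 in trained 0 h, when 2 others of the gene were at -1.13 and -0.87. Dnajc10, an ER disulphide reductase, had a region 35.5 kb away that was lower in all 5 contrasts, from -1.91 to -1.16, and one 36.9 kb away at +1.82 in trained 0 h, +2.22 in untrained 6 h and +1.39 in trained 6 h. Wfs1, an ER membrane protein, had a region at +1.14 in untrained 0 h and +2.64 in trained 0 h. The sedentary concentration of that region was only 5.51, so the fold rests on few reads. Other Wfs1 regions went both ways at 0 h. One 1.72 kb upstream was at +0.73 in untrained and +1.26 in trained mice, and one 17.8 kb from a start at -0.63 and -0.62. The region over a Wfs1 start was at -0.89 in untrained 0 h. Chac1, an Atf4 target that degrades glutathione, had 2 distant regions that moved apart from each other but in the same directions in both groups at 6 h. The one 28.1 kb away was at +2.63 in untrained and +1.23 in trained 6 h, and the one 38.8 kb away at 0.345-fold and 0.352-fold. Regions 0.88 kb and 13.3 kb from the Chac1 start were lower in trained 6 h, at -1.05 and -1.03, and were not listed in untrained 6 h. A region of the ER degradation factor Derl1 was at +1.46 in untrained 6 h and +1.40 in trained 6 h. In trained 72 h a region of the chaperonin subunit Cct5 went from a concentration of 9.15 to 8.15 and one of the ubiquitin ligase Syvn1 from 7.71 to 6.81, and both were lower in trained 6 h too, at -1.03 and -0.94. The same Syvn1 region was lower in untrained 6 h as well, at -0.88, and the same Cct5 region in trained 0 h, at -1.05.

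The nuclei were checked against markers of cell types. All 12 myofibre markers held a listed region, 11 of them within 1 kb of a start site. Of 24 markers of other cell types, 15 held a listed region and 5 held one at a start site, namely Myh11, Vwf, Dcn, Cd68 and Pax7. Of all 21751 protein-coding genes 12351 held a listed region, so 15 of 24 is near the share of all genes. At start sites, the median sedentary concentration per kb was 9.42 for myofibre markers. It was 10.14 for Myh11 and Vwf, 9.43 for Dcn, 8.52 for Pax7 and 8.05 for Cd68, so signal at other cell types' markers was present. Their part in the member values was not tested. The study judged its myonuclear fractions pure because markers of mononucleated cells showed no peaks. The values here are those of listed regions within 1 kb of any transcript start, which is another measure.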

How the data were processed

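Per the labels and the study's methods, the authors trimmed reads with Trimmomatic 0.39, aligned them to GRCm39 with Bowtie2 2.4.4 with up to 10 placements per read, sorted them with SAMtools 1.15, called peaks with Genrich 0.6.1 in ATAC mode, which centres reads on the cut sites and drops duplicates, and compared each exercised group with sedentary by DESeq2 inside DiffBind 3.4.11. The deposited values used here are log2 group concentrations, 1 per group of 3 samples, for regions under a false discovery rate of 0.05. The authors' fold changes, p-values and false discovery rates were not used, nor were the tables of gains and losses alone, which repeat rows, or the gene names made with ChIPseeker 1.30.3 outside 1 alternative. Whether each group's 3 samples are 3 different mice is not in the labels.

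From these tables, exercised minus sedentary concentration was computed per region, with no minimum of level. Regions were assigned to protein-coding genes by the nearest start site of any GENCODE M39 transcript, ties shared, with Python 3.11.15 and pandas 2.3.3, and the assignment was tested on simulated data. Places of member regions are given on the Ensembl canonical transcript. Positions of promoter stretches are counted from RefSeq starts, and distances of other pathway genes from the nearest start of any transcript. The members and lists were chosen with earlier results of these data known. Every member is named. Members with a region within 1 kb of a start site or a difference of at least 1 are given in full, and of the other pathway genes the 3 with the largest difference in each contrast. Members and lists are described by counts and medians beside all listed regions.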

Additional observations from a re-analysis of the deposited data

Results flagged for a closer look

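In 3 of the 25 member regions that more than 1 table lists (12.0%), exercised groups lay on opposite sides of sedentary, as in 3.1% of the 23030 such regions in all. These differences between groups were not tested, since only group means are given and both contrasts share the sedentary samples. The region starting 188 bp past the end of Hspa4 was at 0.69 in untrained 0 h and -0.86 in trained 0 h. The region 193 kb past the end of Hspa4 was at 0.77 in untrained 0 h, 0.9 in trained 0 h and 1.25 in untrained 6 h, but at -0.65 in trained 72 h. The region 56.1 kb past the end of Dnajb6 was at 0.81 in untrained 0 h and -0.76 in trained 72 h. No group of single samples could be searched for outlying values.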

How the results depend on the processing

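Of 163 values recomputed under another setting, 133 stayed close to the reported one (within 1.5 times, or for shares within the 95% Wilson interval of the reported share, which covers counting over regions alone), 26 moved and 4 reversed. All 4 reversals came with the deposited naming of regions, which placed 25% of member regions higher in untrained 0 h (median -0.83, 5 members listed) and 40% in untrained 6 h (median -0.72, 2 members listed). With these names the share was 0.0% in trained 0 h (10 members) and 0.0% in trained 6 h (3 members), and 1 member was listed in trained 72 h. Within 10 kb of a start site the share higher was 83.3% in untrained 0 h and 100% in untrained 6 h, with 5 members listed in trained 6 h and 0 in trained 72 h. At an absolute difference of at least 1 the share was 40.0% in trained 0 h (8 members), 100% in untrained 6 h and 0.0% in trained 6 h (1 member, median -1.09), and 0 members were listed in trained 72 h. Without the 25% of regions lowest in concentration it was 0.0% in trained 6 h. With promoters drawn to 3 kb, 1 member lost a promoter in untrained 0 h, 4 gained one in untrained 6 h and 1 gained one in trained 6 h. At canonical start sites, a choice made after seeing the data, 0 members gained a promoter in untrained 6 h and 0 lost one in trained 6 h. The share with a heat shock element was 46.9% for 2 units and 2.94% in the centres of listed regions. The cause of these moves was not tested. Unique genes for tied regions, gene-level start sites, a limit of 100 kb, leaving out near-identical genes and, added after seeing the data, 1 region per gene or no region over another gene's start moved none of their values past these limits. The limits are wide, since 59.5% higher in untrained 0 h with gene-level start sites fell within 52.7 to 82.6%. In untrained 6 h, trained 6 h and trained 72 h, leaving out near-identical genes or regions over another gene's start removed no region, so those values could not move. No paired analysis was possible because the tables hold group means, and for the same reason no replicate could be left out, no other normalization tried and no interval for depth given.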
